A study of Mus musculus with 15 samples.

Results

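The libraries compared here came from the brains of miR-210 knockout (KO) and wild-type (WT) mice that had a sham procedure and no brain injury. They were chosen by their labels: 4 KO sham libraries, numbered 1, 3, 4 and 6, against 3 WT sham libraries, numbered 1 to 3, or 7 of the 15 libraries of the series. All 15 were made from RNA of brain cells isolated as positive for PDGFRβ, by a method the labels do not give. The other 8 libraries, 4 WT and 4 KO, were taken 24 h after a neonatal hypoxic-ischemic injury (HI) and serve here as a separate set in which the same genotype difference could be read. The labels give no age or time for the sham groups, no strain, no cell type or promoter behind the knockout, and they do not say whether replicates were separate animals, so p-values measure the spread between these samples, which may be technical. Of 17892 genes with values, 14853 passed the filter on low counts and were tested.

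miR-210 is a microRNA best known from low oxygen. The hypoxia-inducible factors raise its transcription, and the mature strand, loaded into an Argonaute protein, pairs through its seed with sites in 3′ UTRs and lowers those transcripts, among them mRNAs of mitochondrial iron-sulphur assembly and of the respiratory chain. Pericytes are the mural cells of capillaries; they carry the receptor PDGFRβ, share a basement membrane with the endothelium and help to keep the blood-brain barrier closed.

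Both mature strands of the deleted gene are shown, with the seed, bases 2 to 8, in capitals, because the seed decides which 3′ UTRs the microRNA can recognise. They lie on the minus strand of chromosome 7 at chr7:141221407-141221428 (3p) and chr7:141221445-141221466 (5p) in RefSeq's GRCm38.p6, an older build than that of the deposited table.
miR-210-3p: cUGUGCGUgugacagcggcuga
miR-210-5p: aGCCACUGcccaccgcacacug
The 7 bases that pair with the 3p seed are ACGCACA, read on the transcript strand only. The next sequences are 22-base windows of 3′ UTRs, with those bases in capitals, for the 3 genes among the 22 described first below that hold such a match. They were taken from the transcripts of the GENCODE vM21 annotation of GRCm38.
Bhlhe41, chromosome 6, from base 3926 of a 3′ UTR of 4609 bases: aaaaaaatagtggaACGCACAc
Ccnd1, chromosome 7, from base 1344 of a 3′ UTR of 2676 bases: ctcccttgattcaaACGCACAc
Triobp, chromosome 15, from base 142 of a 3′ UTR of 670 bases: acacccacacacacACGCACAc
Triobp, the same UTR from base 204: gcacacacacatacACGCACAc
3 published targets of miR-210 with a match, whose values are given further on, are shown for comparison.
Acvr1b, chromosome 15, from base 1573 of 2822: ttctccagactcaaACGCACAt
Efna3, chromosome 3, from base 765 of 1538: acaggacctatgcaACGCACAg
Gpd1l, chromosome 9, from base 1892 of 3065, 1 of 3 matches: gtcccacacctaaaACGCACAg

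The targeted gene could not be checked. Mir210 had 1 line in the deposited table, without a value in any library, and the mature microRNA was not measured. Which libraries are KO therefore rests on the labels. Total expected counts, the estimated reads per gene summed over genes, ran from 15436376 to 17911825 in the sham libraries.

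The sorted cell type was present in all 7 libraries, beside other cells. Pdgfrb, which codes for the receptor used for isolation, was at 987, 688 and 906 CPM (counts scaled to a common library size) in WT sham 1, 2 and 3 and at 251, 496, 785 and 533 CPM in KO sham 1, 3, 4 and 6. Endothelial and microglial transcripts were also abundant. Cldn5, a tight junction protein of brain endothelium, was at 1650 to 1920 CPM in WT and 601 to 1930 in KO, and Cx3cr1, a chemokine receptor of microglia, at 337 to 452 in WT and 394 to 840 in KO. Neural transcripts stood high in a few libraries. The mean log2 CPM of the neuron list was 6.19 in KO sham 1, 3.80 in KO sham 3 and 2.76 in WT sham 2, against 0.01 in KO sham 4, 0.50 in WT sham 1, 1.48 in WT sham 3 and 1.74 in KO sham 6. KO sham 1 was also lowest of the 7 for pericyte, fibroblast and endothelial lists.

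**Figure D1:**
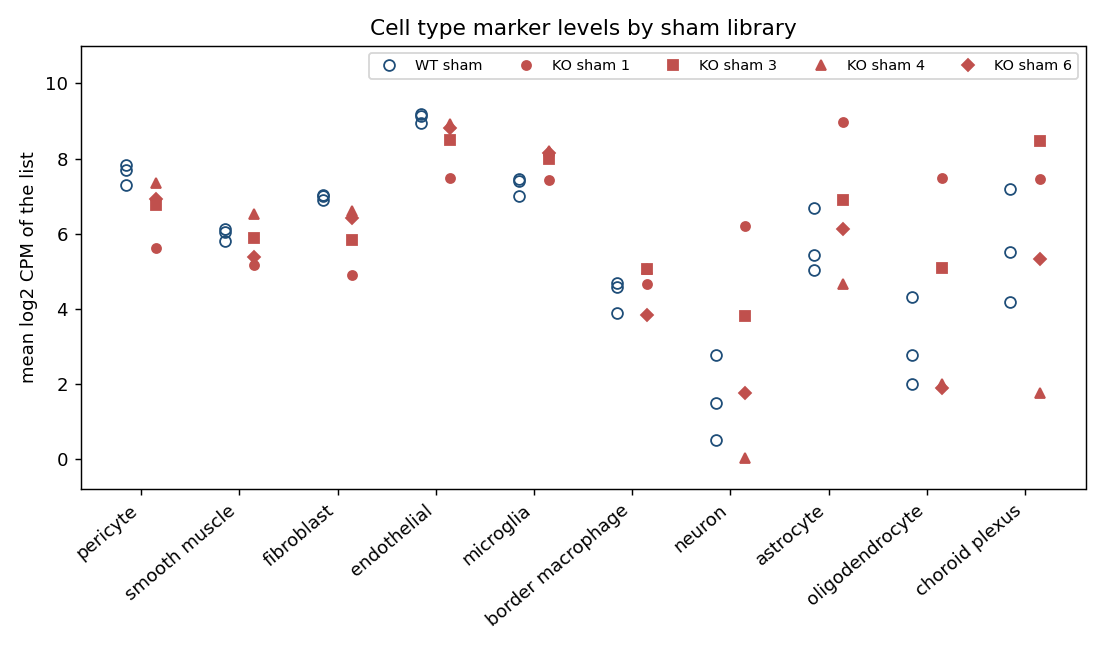
Mean log2 CPM (vertical axis) of the members of 10 cell type marker lists (horizontal axis) in each sham library; open circles are the 3 WT libraries and filled symbols the 4 KO libraries. KO sham 1 is highest for neuron markers at 6.19 and lowest for pericyte markers at 5.61, and KO sham 4 is lowest for choroid plexus markers at 1.74.

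2 genes passed the test between the genotypes, 0.0135% of the 14853 tested, 1 higher (0.00673%) and 1 lower (0.00673%) in KO (edgeR quasi-likelihood, Benjamini-Hochberg adjusted p under 0.05). At an unadjusted p under 0.05 there were 1272 genes, 8.56% of those tested, 827 higher in KO (5.57%) and 445 lower (3%). CPM values of the 2 groups did not overlap for 1503 genes, 10.1% of those tested, 687 higher (4.63%) and 816 lower (5.49%). The median log2 fold change over all genes was 0.05. An exact permutation test of 4 against 3 libraries has 35 splits and cannot give a two-sided p below 0.0571, so none was made for single genes.

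Eno1b, a near-identical copy of the glycolytic enzyme gene Eno1, fell. It was at 302, 196 and 300 CPM in WT sham 1, 2 and 3 and at 0.146, 0.283, 0.289 and 0.0548 CPM in KO sham 1, 3, 4 and 6. All 4 KO libraries were near 0, with 13 counts in all against 14220 in WT. The log2 fold change was -10.37 ± 0.79 (SE, edgeR adjusted p = 0.000103), and the ratio of the summed counts, scaled to library size, was 1370 with a 95% counting interval of 799 to 2570. Such intervals cover counting error only. Among the WT libraries of the HI set, Eno1b was uneven, at 1008 to 5335 counts.

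Eno1 itself was at 213, 318 and 297 CPM in WT and 1060, 685, 465 and 491 in KO, so the groups did not overlap. It did not pass the test, at 1.29 ± 0.28 on the log2 scale (edgeR adjusted p = 0.459). Summed over both genes the values were 516, 514 and 597 CPM in WT and 1060, 685, 465 and 491 in KO, and these overlapped. Eno1b made up 58.6%, 38.1% and 50.3% of that sum in the WT libraries and at most 0.0623% in a KO library. Reads of the 2 copies can be assigned to either, so both genes' values are uncertain on their own, and how the reads were divided was not tested.

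Col28a1, a collagen gene, rose. It had 2, 5 and 1 counts in WT sham 1, 2 and 3 and 33, 109, 157 and 177 counts in KO sham 1, 3, 4 and 6. Every KO library was above every WT library, at a low level: 0.0553 to 0.279 CPM in WT and 2.41 to 9.71 CPM in KO. The log2 fold change was 5.45 ± 0.74 (edgeR adjusted p = 0.041) and the ratio of summed counts was 47.6 (95% counting interval 24 to 111). When 1 of the 15 libraries was left out in turn, Eno1b passed in 15 of 15 fits and Col28a1 in 3. With limma-voom neither passed (adjusted p = 0.363 for Eno1b and 0.432 for Col28a1).

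No other gene passed the edgeR test, the next smallest adjusted p being 0.173. The 10 genes higher and the 10 lower in KO with the smallest unadjusted p, among those with groups that did not overlap and at least 10 CPM in the higher group, were taken next, and most are described below as values. Their edgeR adjusted p-values lay between 0.273 and 0.477. A second test, DESeq2, called 32 genes, 17 higher and 15 lower. Among them were 21 of the 22 genes made up of these 20, Eno1b and Col28a1, with Ccnd1 as the exception. DESeq2 used the same counts from which these genes were chosen, so it is no independent check.

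Among the 10 higher genes, several are enzymes, transporters or regulators of transcription. Slc2a5, the fructose transporter, known in brain from microglia, was at 1.14, 9.73 and 2.93 CPM in WT and 22.6, 37.1, 44.5 and 37.1 in KO (log2 difference 2.94 ± 0.62). Bhlhe41, a repressor of the circadian clock, was at 9.61, 11.4 and 7.47 CPM in WT and 30.7, 19.3, 16.6 and 24.0 in KO (1.25 ± 0.27). H2-T24, a non-classical class I histocompatibility gene, was at 4.46, 4.42 and 2.93 CPM in WT and 9.15, 7.60, 18.1 and 13.1 in KO (1.61 ± 0.29). In each of these the lowest KO library stood above the highest WT library, which was a condition for choosing them. Dcxr, a sugar and carbonyl reductase, was 0.74 ± 0.16 log2 units above WT, Pdlim4, a PDZ-LIM adaptor of the actin cytoskeleton, 1.06 ± 0.24, Umad1 0.83 ± 0.18 and Map11 0.72 ± 0.17. Erdr1 (1.24 ± 0.26) and Zfp991, a zinc finger gene (1.36 ± 0.30), complete the set with Eno1. H2-T24, Zfp991 and Erdr1 belong to families or regions with close copies, so their counts may be shared with those.

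The 10 lower genes include a prostaglandin enzyme, a neutrophil chemokine and an adhesion protein of mural cells. Ptgs2, the inducible cyclooxygenase, was at 23.7, 18.9 and 25.8 CPM in WT and 3.37, 6.92, 7.76 and 8.01 in KO (log2 difference -1.80 ± 0.34). Cxcl1, a neutrophil chemokine, was at 14, 9.73 and 10 CPM in WT and 0.951, 2.32, 4.11 and 1.32 in KO (-2.36 ± 0.55). Bhlhe40, the paralogue of Bhlhe41, was at 97.1, 82.7 and 91.1 CPM in WT and 33.3, 42.7, 56.8 and 37.2 in KO (-1.09 ± 0.21). So the pair of Bhlhe genes differed from WT in opposite directions. That all 4 KO libraries lay beyond WT was a condition for choosing each. Cdh2, the N-cadherin that joins pericytes to endothelial cells, was at 244, 206 and 203 CPM in WT and 142, 132, 154 and 176 in KO (-0.53 ± 0.11). Sik1, a salt-inducible kinase, was 1.23 ± 0.28 log2 units below WT. Ccnd1, cyclin D1, was at 312, 275 and 289 CPM in WT and 236, 166, 212 and 189 in KO (-0.54 ± 0.13).

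Triobp, an actin-bundling protein (-0.39 ± 0.09), and Lrrc8b, a subunit of volume-regulated anion channels (-0.47 ± 0.12), had small differences. Morf4l1b, a copy related to the chromatin gene Morf4l1, was at 54.6, 56.8 and 87.4 CPM in WT and 19.5, 17.8, 19.9 and 19.3 in KO (-1.79 ± 0.32), and its counts may also be shared with its relative. In the gene order of RefSeq (GRCm38), Slc2a5, Zfp991 and Eno1 lie in 1 stretch of chromosome 4, and Col28a1 and Umad1 in 1 of chromosome 6. With the 5 libraries that had the highest neuron markers left out (KO sham 1 and 3, WT sham 2, KO HI 2 and 3), 20 of the 20 genes kept their direction and an unadjusted edgeR p under 0.05; these 20 were chosen from the same libraries.

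**Figure D2:**
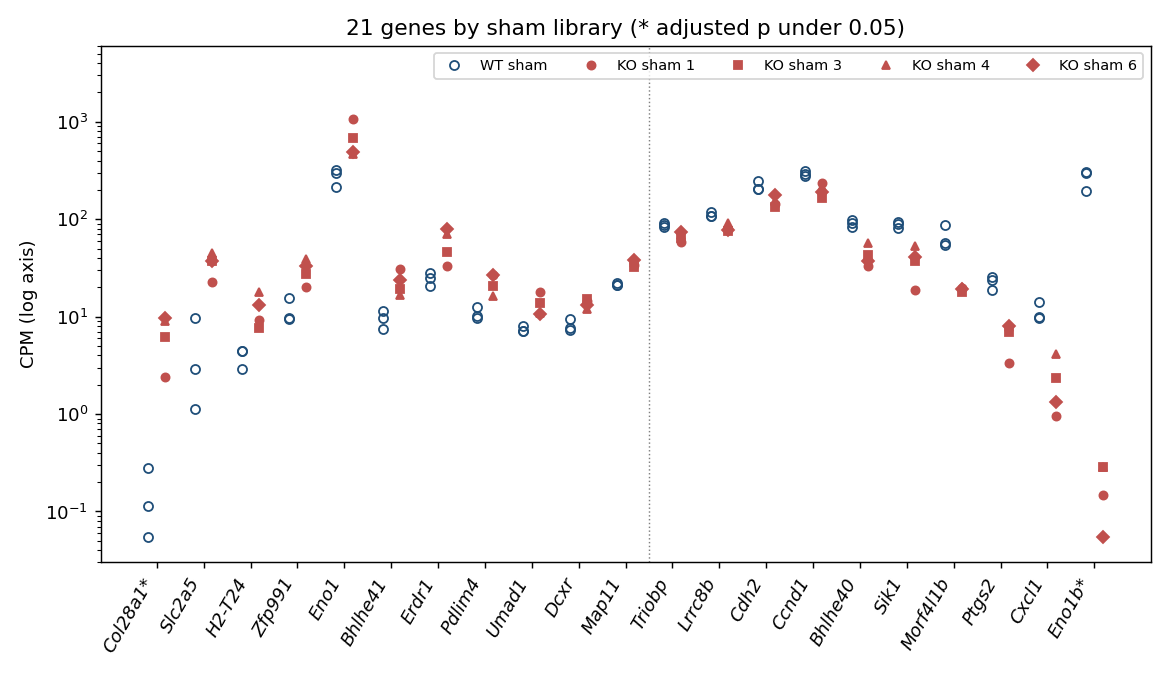
CPM on a log axis (vertical) of 21 genes (horizontal) in each sham library; open circles are the 3 WT libraries, filled symbols the 4 KO libraries, genes left of the dotted line were higher in KO, and a star marks the 2 genes with an adjusted p under 0.05. For all 21 genes the symbols of the 2 genotypes do not overlap, which was a condition for naming all but Eno1b and Col28a1.

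The same genotype difference was read in the 8 HI libraries, which share no library with the sham set, although the fit pools the spread of all groups. In HI, 1844 genes passed (12.4% of those tested), 885 higher in KO (5.96%) and 959 lower (6.46%). Both Eno1b (-10.01 ± 0.80, edgeR adjusted p = 0.000165) and Col28a1 (4.53 ± 0.64, edgeR adjusted p = 0.00511) were among them. Of the 20 genes described above, 20 differed in the same direction in HI, as did 76.4% of all genes tested. In that direction 17 passed, 10 of the 10 higher and 7 of the 10 lower, against 11.7% of all genes. Slc2a5 was at 4.17 ± 0.60 (edgeR adjusted p = 0.00519) and Bhlhe40 at -1.46 ± 0.20 (edgeR adjusted p = 0.00448). Morf4l1b and Ccnd1 were among those that did not pass in HI, at -0.36 ± 0.30 and -0.38 ± 0.12.

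Of the 1503 genes whose sham groups did not overlap, 1366 had the same direction in HI (90.9%, against 76.4% of all genes) and 495 passed in that direction (32.9%, against 11.7%). KO HI 2 and 3 were also high in neuron markers, and the part of these in the shared direction was not tested. The difference between the genotype effects, HI minus sham, passed for 0 genes with edgeR (768 at an unadjusted p under 0.05, 5.17%), 0 with limma-voom (760 unadjusted) and 22 with DESeq2. For Morf4l1b it was 1.43 ± 0.44 log2 units, with an edgeR adjusted p of 0.834; of the 20 genes it was the only one with an unadjusted edgeR p under 0.05. The WT HI libraries were uneven for Morf4l1b, at 292 to 869 counts.

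**Figure D3:**
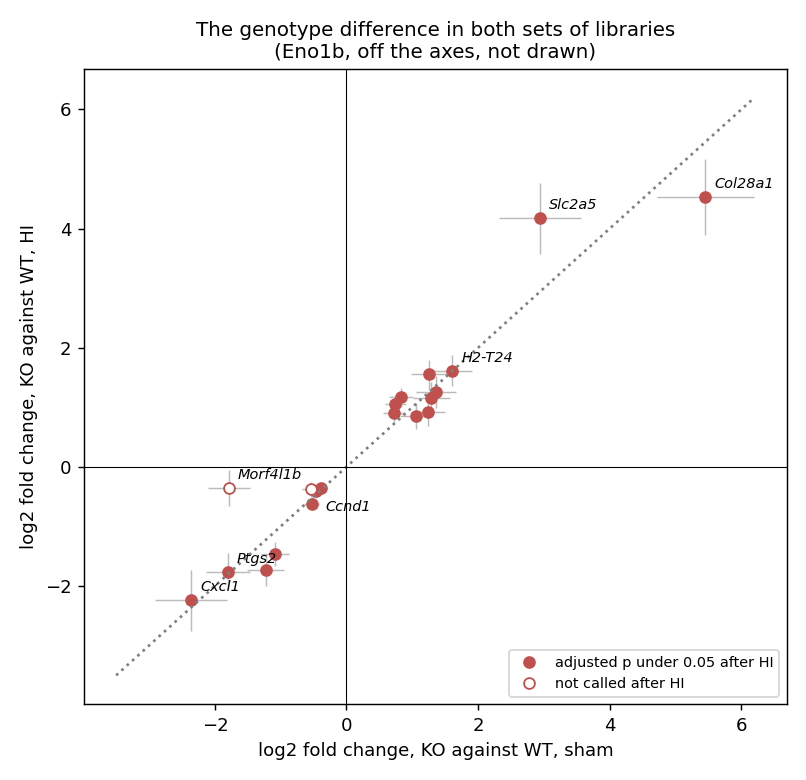
Log2 fold change of KO against WT in sham (horizontal) and in HI libraries (vertical) for the same genes but Eno1b, with SE bars; the dotted line marks equal values, filled points passed in HI and open points did not. All points lie on the same side of 0 in both sets, and Morf4l1b is farthest above the line among the lower genes, at -1.79 in sham and -0.36 in HI.

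Pericyte, fibroblast and endothelial markers lay below WT as lists, with no member passing by edgeR or DESeq2. In bulk RNA, fewer cells of a type and less RNA per cell cannot be told apart. Of 20 pericyte markers, 20 had a negative log2 fold change, with a median of -0.82 against 0.05 for all genes; 8 had an unadjusted edgeR p under 0.05 (3% of all genes were lower at that threshold) and 11 had KO libraries all below WT (5.49% of all genes). Abcc9, a subunit of the pericyte ATP-sensitive potassium channel, was at 492, 207 and 389 CPM in WT and 30.5, 117, 173 and 177 in KO. Rgs5, a regulator of G-protein signalling in pericytes, was at 6120, 4500 and 5480 CPM in WT and 1700, 3400, 4420 and 2520 in KO. In both genes KO sham 1 was the lowest library.

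The 15 fibroblast markers had a median of -0.88. Of these, 11 had all KO libraries below WT (5.49% of all genes), but only 1 had an unadjusted edgeR p under 0.05 (3% of all genes). Col1a1, the main chain of type I collagen, was at 1210, 1200 and 1220 CPM in WT and 220, 506, 987 and 540 in KO, so the WT libraries were nearly equal while KO libraries spread widely. Igf2, a growth factor of the meninges, was at 3200, 3440 and 3420 CPM in WT and 1040, 2240, 2240 and 1830 in KO. The 18 endothelial markers had a median of -0.49, with 8 whose KO libraries were all below WT (5.49% of all genes) and 5 with an unadjusted edgeR p under 0.05 (3%). Slco1c1, a thyroid hormone transporter of brain capillaries, was at 1490, 1170 and 1230 CPM in WT and 435, 776, 787 and 928 in KO, and Mfsd2a, a lipid transporter that limits vesicle traffic across the barrier, at 502, 348 and 434 in WT and 78.2, 156, 222 and 346 in KO. Pan-endothelial Cdh5 overlapped, at 751, 702 and 763 CPM in WT and 261, 516, 759 and 773 in KO, with KO sham 4 and 6 within or just above the WT range.

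Of 15 genes of smooth muscle and contraction, 5 were positive and 10 negative, with a median of -0.05, which was 0.10 without the 5 libraries with high neuron markers. Acta2, smooth muscle actin, was at 1080, 936 and 1170 CPM in WT and 665, 1040, 1730 and 719 in KO, a difference of -0.03 ± 0.36. Casq2, a calcium-binding protein of muscle, was the only member with an unadjusted edgeR p under 0.05, at -1.20 ± 0.44.

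Since the 2 KO libraries with the highest neuron markers also had the lowest pericyte levels, each list was also computed without the 5 libraries named above, which leaves 2 libraries per sham group. The pericyte median was then -0.55, fibroblast -0.47, endothelial -0.24 and microglia 0.95. With all 7 libraries the list levels overlapped for pericyte markers, at 7.30 to 7.84 log2 CPM in WT and 5.61 to 7.34 in KO, and for microglia markers, at 6.99 to 7.46 and 7.42 to 8.21. The levels of the 4 remaining libraries did not overlap for these 4 lists, for example 7.70 to 7.84 log2 CPM in WT against 6.91 to 7.34 in KO for pericyte markers, and 9.12 to 9.18 against 8.82 to 8.91 for endothelial markers. With 2 libraries per group, lists with small differences were apart too. Levels of p53 targets were 4.80 to 4.81 in WT against 4.74 to 4.75 in KO, and of heat shock genes 6.43 to 6.48 against 6.27 to 6.40. Lack of overlap among so few libraries therefore says little by itself. The neuron median moved from 2.63 to -0.16.

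Genes of the vessel wall and barrier mostly had the same direction. These lists are not separate from those above: Cldn5, Ocln, Mfsd2a, Slc2a1 and Abcb1a are both junction genes and endothelial markers. Of 20 basement membrane and fibrillar matrix genes, 20 were negative (median -0.61), 8 had KO libraries all below WT (5.49% of all genes) and 4 had an unadjusted edgeR p under 0.05 (3%). Those 4 include Nid1, the nidogen linking laminin to collagen IV, at -0.97 ± 0.38, and the laminin chain Lamb1 at -0.83 ± 0.37. Of 19 junction and barrier transport genes, 18 were negative (median -0.48) and 7 were lower at an unadjusted edgeR p under 0.05 (3% of all genes). Tfrc, the transferrin receptor, was at 1910, 1590 and 1360 CPM in WT and 474, 809, 1220 and 964 in KO, and Marveld2, a tight junction protein, at 21.4, 17.3 and 16.1 in WT and 6.07, 12.2, 11.2 and 13 in KO. Both had KO libraries all below WT. Without the 5 libraries the medians were -0.36 for basement membrane and -0.25 for junction genes.

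Lists of signals between endothelium and pericytes had negative medians. Some members, Pdgfrb, Pdgfra, Tek, Tie1 and Notch3, are also cell type markers of the lists above. Of 18 genes of PDGF signalling and pericyte recruitment, 15 were negative (median -0.48). Pdgfb, the ligand of PDGFRβ made by endothelial cells, was at 340, 266 and 309 CPM in WT and 87.7, 184, 216 and 213 in KO (-0.80 ± 0.27). S1pr3, a sphingosine-1-phosphate receptor, was at -0.85 ± 0.34. Notch pathway genes of vessels had a median of -0.31 with Hes1, a transcriptional effector of Notch, at -0.70 ± 0.30, and Wnt pathway genes of brain vessels also -0.31 with the Wnt feedback inhibitors Axin2 at -0.67 ± 0.29 and Apcdd1 at -0.75 ± 0.34. The TGF-beta and BMP list, at -0.18, had 0 members with an unadjusted edgeR p under 0.05. List levels did not overlap for PDGF signalling, at 6.8 to 6.93 log2 CPM in WT and 6.12 to 6.77 in KO. They overlapped for the Notch, Wnt and TGF-beta and BMP lists. KO sham 4 was above all WT libraries for Notch (7.31 against at most 7.21) and for TGF-beta and BMP genes (6.88 against at most 6.85). No member of these lists passed with edgeR, and DESeq2 called 1, Cdh2, lower (adjusted p = 0.00465). Without the 5 libraries the medians were -0.33 for PDGF signalling, -0.12 for Notch, -0.11 for Wnt and -0.04 for TGF-beta and BMP genes.

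**Figure D4:**
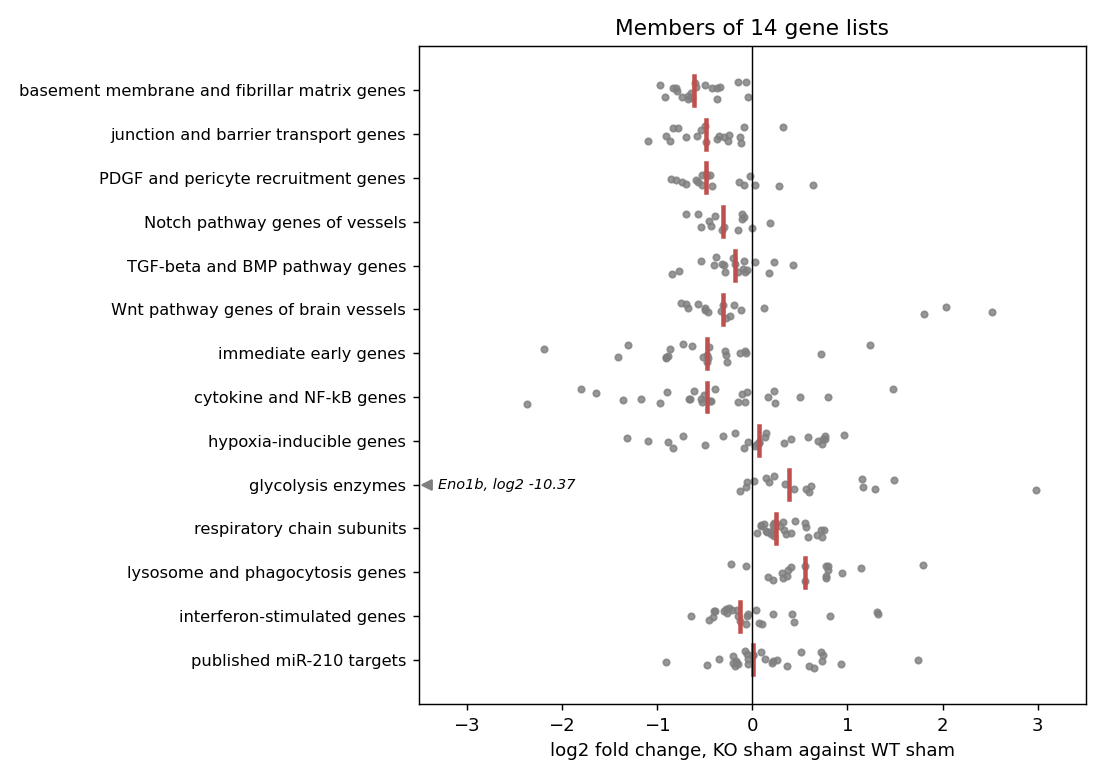
Log2 fold change of KO sham against WT sham (horizontal axis) for each tested member (points) of 14 gene lists (vertical axis), with the list's median as a red bar. Medians run from -0.61 for basement membrane and fibrillar matrix genes to 0.55 for lysosome and phagocytosis genes, and Eno1b is drawn at the left edge with its value.

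Immediate early genes and cytokines, which respond within minutes to hours to stimulation, were mostly below WT. Of 22 immediate early genes, 20 were negative (median -0.47), 6 were lower at an unadjusted edgeR p under 0.05 (3% of all genes) and 7 had KO libraries all below WT (5.49%). Fosb, a partner of Jun proteins, was at 495, 475 and 422 CPM in WT and 73.6, 167, 361 and 152 in KO, and Nr4a1, an orphan nuclear receptor, at 295, 213 and 270 in WT and 43.7, 83.8, 200 and 62.3 in KO. Fos was at 1420, 1350 and 1320 CPM in WT and 376, 783, 1170 and 589 in KO. KO sham 4 came closest to WT for all 3. Without the 5 libraries with high neuron markers, the list's median was -0.31 and 1 member had an unadjusted edgeR p under 0.05.

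Of 26 cytokine and NF-κB genes, 20 were negative (median -0.47), and 5 had KO libraries all below WT (5.49% of all genes). Beside Ptgs2 and Cxcl1 these included Cxcl2, another neutrophil chemokine, at 14.8, 12.6 and 9.01 CPM in WT and 1.76, 4.76, 7.58 and 1.43 in KO (-1.64 ± 0.60), and the leukocyte adhesion receptor Sele, at 1.01 to 1.66 CPM in WT and 0.384 to 0.68 in KO. At an unadjusted edgeR p under 0.05, 5 members were lower (3% of all genes) and 1 higher (5.57%). The higher one was the chemokine Ccl5, at 0.114, 0.168 and 0.111 CPM in WT and 0.0732, 0.34, 0.637 and 0.439 in KO (1.48 ± 0.50). Its groups overlapped, near 0. The list's median was -0.30 without the 5 libraries.

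Microglial and lysosomal genes mostly had positive log2 fold changes. All of the 16 microglia markers were positive (median 0.68), 2 with an unadjusted edgeR p under 0.05 (5.57% of all genes) and 3 with KO libraries all above WT (4.63%). Trem2, a lipid-sensing receptor, was at 46.7, 49.2 and 32.1 CPM in WT and 53.7, 76.4, 95.2 and 126 in KO, and P2ry12, an ADP receptor of homeostatic microglia, at 240, 268 and 172 in WT and 273, 403, 374 and 288 in KO. Aif1, which codes for Iba1, was at 21.8, 20.1 and 15.2 CPM in WT and 21.7, 32.8, 38.1 and 35.1 in KO, overlapping through KO sham 1. Without the 5 libraries the list's level was 6.99 to 7.41 log2 CPM in WT and 8.16 to 8.21 in KO. Border macrophage markers were at a median of 0.26, with Mrc1, a scavenger receptor, at 0.15 ± 0.31.

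Of 19 lysosome and phagocytosis genes, 17 were positive (median 0.55) and 5 had an unadjusted edgeR p under 0.05 (5.57% of all genes were higher at that threshold). Npc2, a cholesterol carrier of lysosomes, was at 206, 216 and 199 CPM in WT and 291, 267, 251 and 289 in KO. Ctsd, the aspartic protease cathepsin D, was at 852, 855 and 849 CPM in WT and 1060, 1510, 1100 and 2270 in KO. The WT values were nearly equal and every KO library was above them. As a list the levels overlapped, at 7.27 to 7.53 log2 CPM in WT and at 7.49, 7.68, 7.60 and 8.49 in KO sham 1, 3, 4 and 6. Groups did not overlap for 3 of the 19 members, all higher in KO (4.63% of all genes). The list's median log2 fold change was 0.77 without the 5 libraries.

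Neural, oligodendrocyte and choroid plexus genes had large log2 differences with wide spread, and none passed with edgeR or DESeq2. Slc1a2, the glutamate transporter of astrocytes, was at 110, 634 and 165 CPM in WT and 7630, 1170, 93.1 and 204 in KO (2.91 ± 1.43). Mbp, myelin basic protein, was at 33.1, 273 and 74.5 CPM in WT and 6420, 888, 31.1 and 25.4 in KO, and Ttr, the transport protein of the choroid plexus, at 1100, 3230 and 10900 in WT and 12300, 25600, 122 and 3520 in KO. These groups overlapped, and the high values came from KO sham 1 and 3.

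Hypoxia-inducible genes lay on both sides of WT. Of 25, 15 were positive and 10 negative (median 0.07), 4 higher (5.57% of all genes) and 5 lower (3%) at an unadjusted edgeR p under 0.05. Groups did not overlap for 1 higher and 4 lower members (4.63% and 5.49% of all genes), and the median was -0.01 without the 5 libraries. Pfkfb4, a regulator of glycolysis, was at 10, 12.1 and 10.7 CPM in WT and 19.5, 17.6, 15.6 and 13.2 in KO, whereas Adm, the vasodilator peptide adrenomedullin, was at 16.5, 10.6 and 11.7 in WT and 1.68, 4.76, 7.47 and 6.91 in KO. Both had groups that did not overlap, in opposite directions. All 27 respiratory chain genes were positive, with a median of 0.25 that was -0.07 without the 5 libraries. Ndufa2, a complex I subunit, was at 30, 33.4 and 34.3 CPM in WT and 76.6, 40.4, 35 and 41.9 in KO.

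Published targets of miR-210 were centred near 0. Of 29 tested, 16 were positive and 13 negative, with a median of 0.01 against 0.05 for all genes; 3 were higher (5.57% of all genes) and 1 lower (3%) at an unadjusted edgeR p under 0.05. Iscu, the scaffold of iron-sulphur cluster assembly, was at 46.0, 43.9 and 48.1 CPM in WT and 64.3, 57.6, 53.5 and 44.5 in KO, overlapping through KO sham 6. Acvr1b, an activin receptor whose site is shown above, was at 16.4, 23.3 and 21.1 CPM in WT and 40.5, 32.0, 23 and 27.1 in KO (0.60 ± 0.18), overlapping through KO sham 4. Bnip3, a mitochondrial regulator of mitophagy, was at 0.74 ± 0.31. Over the other fits Bnip3 ran from 0.10 to 0.96 and Iscu from 0.05 to 0.36. Tfrc, the lower member, was at -0.90 ± 0.34, with KO libraries all below WT. Without the 5 libraries with high neuron markers, 1 target was higher and 0 lower at an unadjusted edgeR p under 0.05, and the median was 0.05. Gpd1l, a glycerol-3-phosphate dehydrogenase with 3 matches, was at 71.4, 81.7 and 66.7 CPM in WT and 145, 81.0, 80.1 and 73.4 in KO, and Efna3, an ephrin ligand, was below 6 CPM in all 7 libraries and overlapped.

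Across the transcriptome, 534 tested genes had at least 1 match ACGCACA in an annotated 3′ UTR, 3.68% of the 14496 with such a UTR. Their median log2 fold change was 0.06, against 0.04 for the 13962 genes with none. Groups that did not overlap were higher in KO for 3% of genes with a match and 4.66% without, and lower for 6.18% and 5.48%. At an unadjusted edgeR p under 0.05, 34 of the 534 genes with a match were higher and 19 lower. Of the 13962 without, 765 were higher and 419 lower, and of all genes tested 5.57% and 3%. The 2 measures thus differ in which set is more often higher. Genes with a match had longer 3′ UTRs, with a median of 2755.5 bases against 1133. Of the 22 genes, 19 had an annotated 3′ UTR and 3 a match, which are the genes shown above: Bhlhe41 was higher in KO, and Ccnd1 and Triobp were lower.

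**Figure D5:**
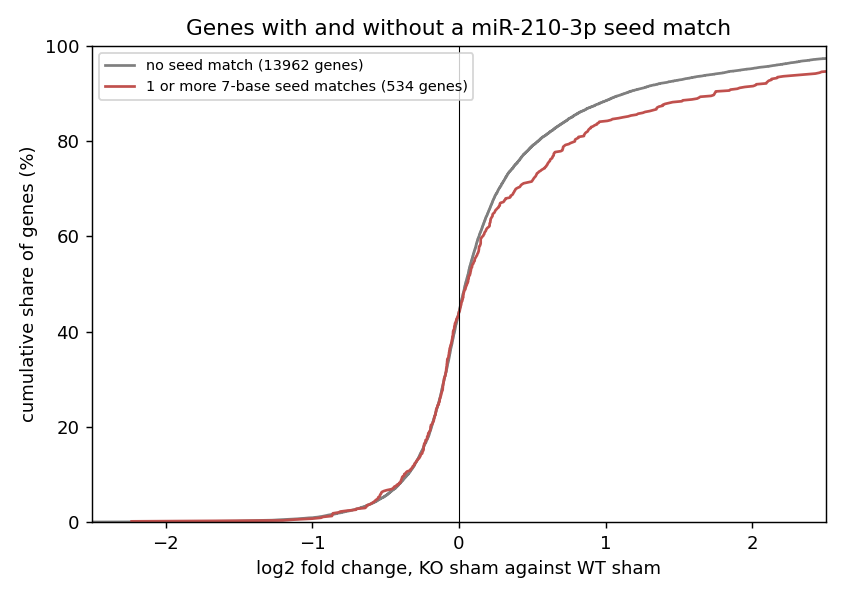
Cumulative share of genes in percent (vertical) by log2 fold change of KO sham against WT sham (horizontal, drawn from -2.5 to 2.5) for 534 genes with a seed match and 13962 without. The curves cross 0 together, with medians of 0.06 and 0.04, and at positive values the curve of genes with a match lies to the right; these genes also have longer 3′ UTRs, with a median of 2755.5 against 1133 bases.

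Genes near Mir210 on chromosome 7 were centred near 0. Of 34 tested, 20 were positive and 14 negative (median 0.04), and 3 were higher at an unadjusted edgeR p under 0.05, as were 5.57% of all genes. Slc25a22, a mitochondrial glutamate carrier, was at 20, 24.0 and 21.3 CPM in WT and 73.4, 29.2, 28.4 and 26.5 in KO, and Hras, a small GTPase, at 36.4, 39.5 and 38.2 in WT and 109, 49.2, 41.7 and 46.8 in KO. The groups did not overlap for either gene, and KO sham 1 was far above the other KO libraries in each. Rplp2, a ribosomal stalk protein, overlapped (0.38 ± 0.17).

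Interferon, complement and antigen presentation lists had medians of -0.13, 0.29 and 0.05. KO libraries were all above WT for 3 of 25, 1 of 17 and 2 of 20 members (4.63% of all genes). They were all below WT for 0, 1 and 0 (5.49%). Of the interferon genes 9 were positive and 16 negative. C1qa, C1qb and C1qc are on both the complement and the microglia list. Mx1, an antiviral GTPase, was at 1.43, 1.17 and 1.44 CPM in WT and 4.17, 2.83, 4.34 and 2.14 in KO, and C3, the central complement protein, at 13.8, 14.4 and 11.7 in WT and 17.1, 27.3, 52.6 and 28.5 in KO. In both, KO libraries were all above WT. Ifi44, another interferon-stimulated gene, was at 10.8, 9.56 and 11.6 CPM in WT and 4.17, 6.12, 10.3 and 6.69 in KO, overlapping. Nlrc5, the activator of class I genes, was at 1.37, 1.51 and 2.43 CPM in WT and 3, 3.91, 5.90 and 2.96 in KO, beside H2-T24 described above.

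Of the p53, cell cycle, heat shock, stress response and cholesterol lists, none had a median beyond 0.39 in either direction, and no member passed with edgeR or DESeq2. Plk2, a p53-induced kinase, was at 201, 192 and 181 CPM in WT and 55.0, 114, 142 and 110 in KO (-0.86 ± 0.27). Asns, asparagine synthetase, was at 28.4, 22.8 and 23.1 CPM in WT and 22.8, 10.2, 10.7 and 9.71 in KO, low in all KO libraries but KO sham 1. It was 1 of 5 genes that passed edgeR without the 5 libraries, with Tnfrsf1b, Col28a1, Ptgs2 and Erdr1; Eno1b then had an adjusted p of 0.0543.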

How the data were processed

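RNA-seq libraries of PDGFRβ-positive mouse brain cells were compared, 3 WT sham and 4 KO sham, grouped by their titles. The authors deposited expected counts, not normalized, in 1 table of 65535 lines, 17892 of them with values; its header names no unit, which was read from the values (3.12% to 3.92% not whole per library) and from RSEM among the tools. Per the submitters' processing notes these were DESeq2 1.4.5, RSEM 1.3.1, Bowtie, Bowtie2 2.4.4 and HISAT2 2.1.0, and the build was mm39; their roles are not given in the sources used here. How reads were divided between near-identical genes bears on Eno1 and Eno1b.

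Expected counts were rounded, filtered with filterByExpr, normalized by TMM and fitted with edgeR 4.0.16 (R 4.3.3) as 4 group means over 15 libraries, so that the spread comes from all groups; calls used a Benjamini-Hochberg adjusted p under 0.05. CPM values are counts over the TMM-scaled library size, and list levels are means of log2 CPM with a prior count of 1. SEs were derived from the edgeR F statistic. The test was also run on simulated counts, drawn separately for each gene without shifts shared by many genes of a library. The simulation therefore does not cover spread such as that of KO sham 1. Sums over 15436376 counts or more per library leave counting error small except for genes near 0.

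Named genes were Mir210, all called genes, the 10 higher and 10 lower not called with the smallest p, no overlap, at least 10 CPM and no provisional symbol, and up to 4 members per list with the smallest p, with the first 3 of a cell type list. The first 3 were not all printed, some genes that the rule gives are not reported here, and Fos, Cxcl2, Gpd1l, Efna3, Tnfrsf1b, Zfp990 and Tma7-ps were named after their values were seen. Members and lists were chosen with earlier results of these data known. The 41 lists are described by counts and medians without a test, and some share members. 3′ UTRs came from GENCODE vM21 (GRCm38) and microRNA sequences from RefSeq. Of the lines with values, 17862 matched a symbol.

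Alternatives were RLE factors, library totals, DESeq2 1.42.0, limma-voom (limma 3.58.1), 2 other filters, sham libraries only, 5 libraries left out, neuron and choroid covariates, a replicate block and each library left out. DESeq2 and limma-voom on sham libraries alone were added after seeing the data. Replicates were no duplicates: chi-square per degree of freedom was 19.6 to 24.3 between WT sham and 44.6 to 384 between KO sham libraries.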

Additional observations from a re-analysis of the deposited data

Results flagged for a closer look

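A library stood apart within KO sham (its gap to the nearest of the other 3, over the range of the 4, above 0.829) in 12 of 151 groups of values examined. That cut-off gives about 1 in 20 by chance only for independent groups of normally spread values. Genes were examined as CPM without logs, and many groups share the same high library, so the count of 12 cannot be set against that rate. KO sham 1 was apart in 10 of them. It was high for Map2 (1060 CPM against 24.4 to 196 in the other KO libraries), Slc1a2 (7630 against 93.1 to 1170), Mbp (6420 against 25.4 to 888), Lss (135 against 13.1 to 32.6), Ndufa2 (76.6 against 35 to 41.9), Gpd1l (145 against 73.4 to 81), Slc25a22 (73.4 against 26.5 to 29.2), Hras (109 against 41.7 to 49.2) and Asns (22.8 against 9.71 to 10.7). The same library was low for the matrix protease list (mean log2 CPM 3.97 against 4.3 to 4.31).

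KO sham 4 was apart for Ifi27l2a, an interferon-induced gene, at 8.97 CPM against 5.54 to 5.73, and for the Y-linked list, with a mean log2 CPM of -3.36 against 3.74 to 5.19. Among WT sham libraries that list was at 5.52, 4.82 and 1.17. The labels give no sex for any library, and the part of this in other genes was not tested.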

How the results depend on the processing

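edgeR called 2 genes, 1 higher and 1 lower, both also called in HI. The counts were 1, with 0 higher and 1 also in HI where HI was fitted, with library totals only, at least 10 CPM in 3 libraries or only the 7 sham libraries. DESeq2 called 32 (17 higher, 15 lower, 28 also in HI), limma-voom 0 (1072 at an unadjusted p under 0.05; 0 higher, 0 lower and 0 in HI), the fit without the 5 libraries 5 (3, 2 and 5 in HI) and the covariate fit 16 (8, 8 and 13 in HI). On the 7 sham libraries alone DESeq2 called 103 (63 and 40) and limma-voom 2 (0 and 2). Leaving out 1 library gave 1 to 2 calls, 0 to 1 higher, 1 to 2 lower and 1 to 2 also in HI; Col28a1 passed only without KO sham 1, KO HI 3 or KO HI 4. The cause of these moves was not tested.

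With the replicate block edgeR called 1 gene, 0 higher and 1 also in HI, and Col28a1 had an edgeR adjusted p of 0.289. The labels do not say what a replicate number shares. Deviations of same-numbered sham libraries from their group means correlated at -0.60 and 0.38, and those of WT sham 1 and KO sham 4 at 0.76. So few pairs cannot tell whether equal numbers share an origin.

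Directions turned for Acta2 (0.11 without the 5 libraries, 0.10 with covariates, 0.04, 0.13 and 0.11 without WT sham 3, KO sham 1 or KO sham 6, and -0.40 to 0.13 over all such omissions), Efna3 (-0.17 without the 5, -0.15 with covariates, -0.11 without KO sham 1 to 0.74 without KO sham 4), Cdh5 (0.01), Mbp (-0.94) and Ttr (-1.74) without the 5, and Mrc1 (-0.07 without WT sham 3 to 0.30 without WT sham 2). The median of all genes stayed between 0.01 and 0.06 in every fit. Genes under a few CPM, such as Efna3 or Sele, are limited by depth.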

Other observations

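The values here were chosen after they were seen. 4 genes that were high in all 3 WT sham libraries and near 0 or low in all KO libraries were uneven among the WT HI libraries. Eno1b had 3507 to 5431 counts in WT sham and 1008, 5335, 2619 and 1026 in WT HI 1, 2, 4 and 5. Zfp990, a zinc finger gene on chromosome 4, had 126, 63 and 124 counts in WT sham, 0, 1, 2 and 2 in KO sham and 19, 82, 90 and 8 in WT HI. Tma7-ps had 76, 39 and 66 counts in WT sham, 0 in each KO library of either set, and 0, 70, 0 and 0 in WT HI. Morf4l1b had 954, 1016 and 1581 counts in WT sham, 267 to 352 in KO sham and 320, 869, 292 and 327 in WT HI. WT HI 2 was within or just below the range of WT sham for all 4, whereas WT HI 1 and 5 were below it in each. Nothing in the labels separates these WT HI libraries.

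Genes with groups that did not overlap were frequent around 2 named genes. In the gene order of RefSeq (GRCm38), 53 tested genes lie on chromosome 4 from Zfp990 to Eno1, and 35.8% of them had sham groups that did not overlap, 7 higher and 12 lower in KO, against 10.1% of all genes. They include Zfp991 and Slc2a5. From Col28a1 to Umad1 on chromosome 6, 4 of 4 tested genes were higher without overlap. The stretches were bounded by named genes with small p-values, so these shares are descriptions.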
